A study of Mus musculus with 6 samples.

Results

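The genes examined were 42 genes of DNA replication and S phase, chosen by name from the 34573 genes of a count table. They encode the proteins that license and fire replication origins, copy DNA at the fork, supply deoxynucleotides, rebuild chromatin behind the fork and commit the cell to S phase. All 42 had a row in the table and all 42 passed the filter on low counts. RNA had been sequenced from hematopoietic stem cells (HSCs) sorted from bone marrow as Lineage- CD48- CD150+ cells, in 3 samples from *Rpl22*-/- mice and 3 from *Rpl22*+/+ mice. The study's list of resources defines its mouse HSCs as also Kit+ and Sca1+. Per the study's methods, the mice were young adults on a C57BL/6 background. *Rpl22* is the gene of a large-subunit ribosomal protein, and the study's introduction describes its deletion as a germline one, so it was not limited to HSCs. The study set out to learn how HSC function and proliferation depend on Rpl22, and the comparison below asks what the replication genes did in those cells.

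Replication is prepared in G1, when the origin recognition complex, Cdc6 and Cdt1 load the ring of Mcm2 to Mcm7 onto DNA. On entry into S phase Cdc45 and the GINS complex join that ring to form the active helicase, DNA polymerase alpha with primase lays down primers, and polymerases delta and epsilon extend them while the Pcna clamp, set in place by replication factor C, holds them on the template. Transcription of many of these genes is driven by E2F factors, which retinoblastoma proteins hold inactive in resting cells, and adult HSCs are known for dividing rarely. A level per sample mixes the share of cells in S phase with the amount of RNA per cell, and in sorted bulk samples fewer cycling cells and less RNA per cycling cell cannot be told apart.

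Because these genes share a known route of transcription, their promoter windows were read from RefSeq (GRCm38.p6), from 250 bases before the start of transcription to 50 bases after it. A window was at hand for 33 of the 42 genes. *Mcm4*, *Gins1*, *Gins2*, *Gins4*, *Prim2*, *Pole*, *Rfc2*, *Tipin* and *Ccne2* were not matched. The letters searched for an E2F site were TTTCCCGC, TTTCGCGC, TTTGCCGC and TTTGGCGC on both strands. They stood in the windows of 14 of the 33 genes, or 42.4%, namely *Cdc6*, *Cdt1*, *Gins3*, *Lig1*, *Mcm3*, *Mcm5*, *Mcm6*, *Mcm7*, *Orc1*, *Pola1*, *Pold1*, *Pole2*, *Rfc3* and *Uhrf1*. Of all 32851 RefSeq windows of this length, 2.26% held one, and of the 38 windows of the 33 genes, 36.8% did. The CHR element of late cell cycle genes was searched as TTTGAA or TTCGAA (none of the letter strings contains another). It was found for 6 of 33 genes (18.2%) and in 15.8% of their 38 windows, against 19.2% of all windows. The CCAAT box was found for 19 genes (57.6%) and in 55.3% of the 38 windows, against 37.4% of all windows. These are matches of letters only.

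The windows of 4 genes with an E2F match and the smallest p-values in the comparison below show where the letters lie. Capitals mark the matches, which begin 10 bases downstream of the first transcribed base in *Pole2*, 10 bases upstream of it and exactly on it in *Rfc3*, 153 and 149 bases upstream in *Mcm5*, where both strands match in 1 overlapping run, and 32 bases downstream in *Cdt1*.
Pole2 (chr12:69228141-69228440, minus strand): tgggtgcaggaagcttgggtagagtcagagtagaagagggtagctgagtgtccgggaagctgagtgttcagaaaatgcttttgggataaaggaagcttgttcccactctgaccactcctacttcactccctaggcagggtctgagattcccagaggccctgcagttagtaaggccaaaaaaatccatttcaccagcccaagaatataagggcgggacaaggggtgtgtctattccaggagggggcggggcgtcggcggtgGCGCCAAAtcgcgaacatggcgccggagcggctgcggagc
Rfc3 (chr5:151651159-151651458, minus strand): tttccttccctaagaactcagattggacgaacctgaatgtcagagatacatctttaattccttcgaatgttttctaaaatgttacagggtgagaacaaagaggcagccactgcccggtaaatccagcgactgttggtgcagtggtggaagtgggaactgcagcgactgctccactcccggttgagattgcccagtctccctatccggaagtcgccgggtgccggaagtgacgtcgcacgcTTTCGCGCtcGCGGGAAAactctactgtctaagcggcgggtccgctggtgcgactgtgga
Mcm5 (chr8:75109259-75109558, plus strand): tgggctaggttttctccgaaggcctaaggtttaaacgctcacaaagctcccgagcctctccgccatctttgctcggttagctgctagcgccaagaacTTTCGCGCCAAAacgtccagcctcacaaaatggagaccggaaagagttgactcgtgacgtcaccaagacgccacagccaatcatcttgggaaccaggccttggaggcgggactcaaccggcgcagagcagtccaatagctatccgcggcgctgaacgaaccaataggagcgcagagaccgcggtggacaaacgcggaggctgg
Cdt1 (chr8:122567765-122568064, plus strand): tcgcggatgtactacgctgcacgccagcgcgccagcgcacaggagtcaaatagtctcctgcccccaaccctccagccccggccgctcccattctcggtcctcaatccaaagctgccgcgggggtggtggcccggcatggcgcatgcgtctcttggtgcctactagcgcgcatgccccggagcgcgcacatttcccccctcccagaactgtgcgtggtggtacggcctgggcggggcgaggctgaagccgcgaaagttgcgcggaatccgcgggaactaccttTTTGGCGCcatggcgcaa
Of these 4, *Pole2* and *Rfc3* had negative and *Mcm5* and *Cdt1* positive log2 fold changes between the genotypes. These letters were not in the windows of *Rfc4* and *E2f1*, the genes at either end of the range of fold changes.

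Reads counted on genes ran from 9321123 to 13385850 per library, the lowest in *Rpl22*+/+ replicate 3. *Rpl22* had 449, 527 and 546 reads in *Rpl22*-/- samples, against 6890, 7001 and 5031 in the *Rpl22*+/+ libraries, so each library matched its label. *Kit*, which encodes the receptor of stem cell factor and a positive marker of the study's gate, was read 9516 to 12843 times per library. *Cd48*, the marker of the negative gate, was read 47 to 92 times. *Slamf1*, which encodes CD150, had 815, 546 and 783 reads in *Rpl22*-/- samples, against 529, 585 and 472 in *Rpl22*+/+ samples. *Ly6a*, which encodes Sca1, had 867, 488 and 656 against 594, 512 and 422. Their adjusted p-values between the genotypes were 0.154 and 0.273 by edgeR. *Rpl22*-/- replicate 2 stood apart in some genes of myeloid progenitors. *Mpo*, which encodes myeloperoxidase, had 1218 reads in it against 178 and 225 in the other *Rpl22*-/- libraries and 19, 72 and 197 in *Rpl22*+/+ samples. *Elane* had 243 reads in it against 4 to 49 elsewhere. *Prtn3* did not follow, with 873 reads in it against 939 and 724 in the other *Rpl22*-/- libraries and 774, 705 and 714 in *Rpl22*+/+ samples. Of 9 multipotent and myeloid progenitor markers tested, 6 were highest of all 6 libraries in it, against 22.9% of all genes tested. Of 15 HSC markers, 13 were lowest in it among the *Rpl22*-/- libraries, against 36.0% of all genes tested. The labels do not say which animals gave which sample or whether animals were pooled, so the p-values measure only the spread between these samples.

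Between the genotypes, none of the 42 genes passed an adjusted p of 0.05 in edgeR's quasi-likelihood test, by which 5.57% of the 14004 genes tested were called, and 2 had an unadjusted p below 0.05, against 22.3% of all genes tested. The log2 fold change of *Rpl22*-/- over *Rpl22*+/+ was positive for 32 genes and negative for 10 (24 and 18 with library size alone as the scaling), with a median of 0.079 against −0.0068 over the 14004 genes. It ran from −0.39 for *Rfc4* to 0.24 for *E2f1*. The *Rpl22*-/- and *Rpl22*+/+ libraries did not overlap in TMM-scaled CPM, the reads on a gene scaled to a common library size, for 3 genes, *Rfc4*, *Pole2* and *Gins2*, against 26.9% of all genes tested. A 95% interval of the log2 fold change lay wholly between −0.5 and 0.5 for 39 of the 42 genes and between −1 and 1 for all 42. The count is 0 at this threshold by edgeR, while DESeq2 and limma-voom each called 1 gene of the 42, *Rfc4*, where they called 7.42% and 5.3% of all genes tested.

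**Figure D1:**
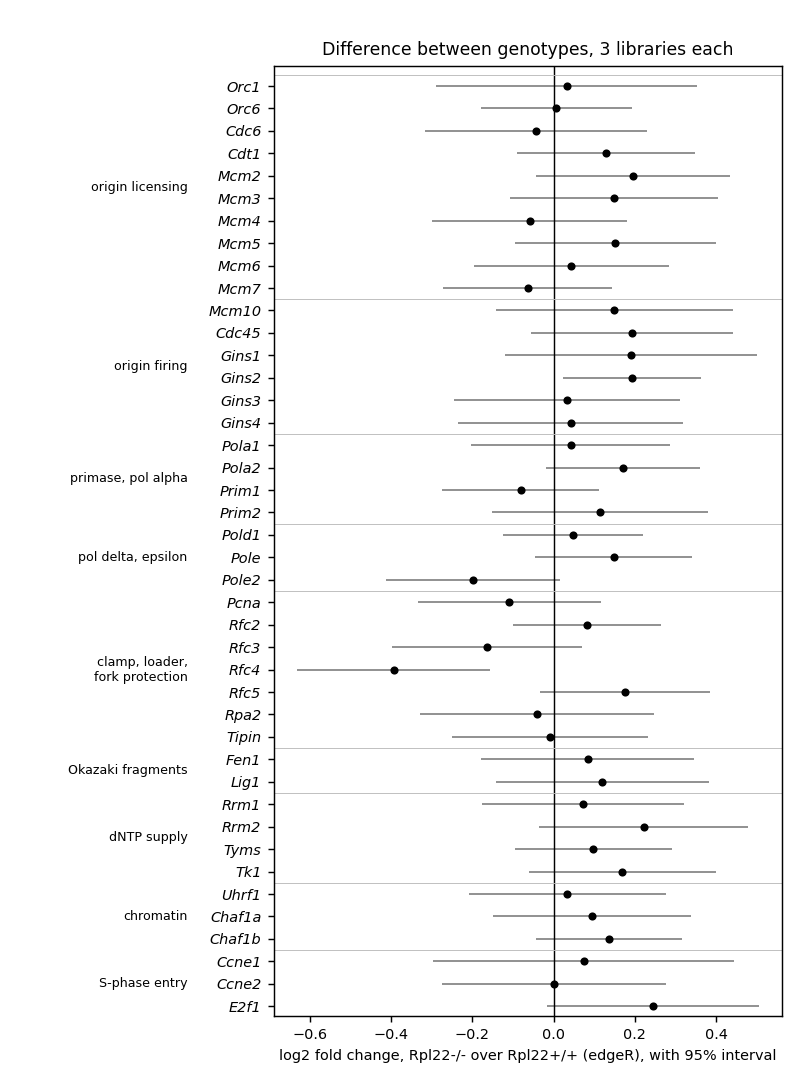
Log2 fold change of *Rpl22*-/- over *Rpl22*+/+ HSCs (x axis, edgeR, 3 libraries each) for the 42 genes, grouped by role (y axis), with bars for the 95% interval. The points sit between −0.39 and 0.24 and the bars leave out 0 only for *Rfc4* and *Gins2*.

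Origin licensing had 10 genes, with 7 positive and 3 negative log2 fold changes and a median of 0.038, of which *Orc1*, *Orc6* and *Mcm6* turned negative with library size alone. *Orc1* and *Orc6* are subunits of the origin recognition complex, *Cdc6* and *Cdt1* load the helicase, and *Mcm2* to *Mcm7* encode its ring. *Mcm2* was at 238, 339 and 263 CPM in *Rpl22*-/- replicates 1, 2 and 3 and at 248, 252 and 232 CPM in *Rpl22*+/+ samples. The replicate 2 value was above every other library, replicate 1 lay within the *Rpl22*+/+ range, and the difference was 0.20 on the log2 scale (SE 0.11, unadjusted p = 0.10, adjusted p = 0.32 by edgeR). The other ring subunits had log2 fold changes from −0.064 for *Mcm7* to 0.15 for *Mcm5*, with adjusted p-values of 0.475 or more. *Mcm3* was at 276, 420 and 332 CPM against 310, 321 and 296 CPM, so that the *Rpl22*-/- libraries lay on both sides of all the *Rpl22*+/+ libraries. *Mcm5* was at 224, 327 and 270 CPM against 252, 261 and 226 CPM, with replicate 2 again above all others. *Mcm6*, the most read of the 42 genes, was at 504, 675 and 561 CPM against 576, 611 and 499 CPM. *Cdt1* was at 65.3, 86.7 and 78.9 CPM against 66.4, 72.0 and 72.9 CPM. The log2 fold changes of the loaders were −0.042 for *Cdc6* and 0.13 for *Cdt1*, and those of *Orc1* and *Orc6* were 0.032 and 0.0069.

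Origin firing had 6 genes, all with positive log2 fold changes in the edgeR fit with TMM scaling and all libraries, and a median of 0.17. *Gins3* and *Gins4* turned negative in some alternatives, among them library size alone. Without *Rpl22*-/- replicate 2, *Gins3*, *Gins4* and *Mcm10* were negative. *Cdc45* and the 4 GINS subunits complete the helicase, and *Mcm10* is needed for it to start unwinding. *Gins2*, on the minus strand of chromosome 8 from 120578633 to 120589304 (GRCm38), was at 214, 226 and 219 CPM in *Rpl22*-/- samples and at 194, 196 and 187 CPM in *Rpl22*+/+ samples. All 3 *Rpl22*-/- values were above all 3 *Rpl22*+/+ values, and the log2 difference was 0.19 (SE 0.080, 95% interval 0.024 to 0.36, unadjusted p = 0.028, adjusted p = 0.165 by edgeR). Of the merged exons of *Gins2*, 67.3% are shared with *Gse1* on the opposite strand. *Gse1* had 5335, 5147 and 5716 reads in *Rpl22*-/- samples, against 4560, 4384 and 3358 in the *Rpl22*+/+ libraries, a log2 fold change of 0.28 (adjusted p = 0.0549 by edgeR), and whether the counting used strand is not given in the sources used here. The part of *Gse1* in the *Gins2* value was not tested. *Cdc45* was at 43.4, 60.7 and 56.9 CPM against 49.6, 46.2 and 45.0 CPM. Replicate 1 of *Rpl22*-/- lay below and the other two above every *Rpl22*+/+ library, with a log2 difference of 0.19 (SE 0.12, adjusted p = 0.357 by edgeR). *Mcm10* was at 40.2, 65.7 and 57.3 CPM against 47.6, 50.6 and 48.8 CPM, again with replicate 1 below and the other two above all *Rpl22*+/+ samples, a log2 difference of 0.15 (SE 0.14, adjusted p = 0.562). *Gins1*, *Gins3* and *Gins4* had differences of 0.19, 0.033 and 0.042.

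Primase and polymerase alpha had 3 positive and 1 negative log2 fold changes, with a median of 0.078. *Pola2*, the accessory subunit of polymerase alpha, was at 86.3, 103 and 102 CPM in *Rpl22*-/- samples, against 84.1, 88.4 and 85.7 CPM in *Rpl22*+/+ samples, and the genotypes overlapped in replicate 1 alone (log2 difference 0.17, SE 0.090, adjusted p = 0.278 by edgeR). The catalytic subunit *Pola1* had a difference of 0.042, which was −0.0052 with library size alone, and the primase subunits *Prim1* and *Prim2* of −0.081 and 0.11. Of the leading and lagging strand polymerases, *Pole*, the catalytic subunit of polymerase epsilon, was at 144, 170 and 179 CPM against 145, 148 and 153 CPM (log2 difference 0.15, SE 0.091, adjusted p = 0.362 by edgeR), with replicate 1 just below and the other two above all *Rpl22*+/+ samples. *Pole2*, its second subunit, was at 35.7, 36.9 and 35.7 CPM against 44.0, 41.4 and 38.8 CPM. Its *Rpl22*-/- libraries all lay below its *Rpl22*+/+ libraries, by 0.20 on the log2 scale, and the interval from −0.41 to 0.017 took in 0 (unadjusted p = 0.068, adjusted p = 0.263 by edgeR). *Pold1*, the catalytic subunit of polymerase delta, had a log2 fold change of 0.047.

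The clamp, its loader and fork protection were the group with the most negative values, 5 of 7, and a median log2 fold change of −0.040. *Rfc4* encodes a small subunit of replication factor C, the loader that opens the Pcna ring, and lies on the minus strand of chromosome 16 of GRCm38 from 23113943 to 23127737. It was at 30.6, 33.0 and 27.0 CPM in *Rpl22*-/- samples and at 41.4, 40.1 and 37.4 CPM in *Rpl22*+/+ samples, or 393, 397 and 356 reads against 539, 500 and 360. All 3 *Rpl22*-/- values in CPM were below all 3 *Rpl22*+/+ values, with means of 30.2 ± 3.02 and 39.6 ± 2.01 CPM (SD, n = 3). The log2 fold change was −0.39 (SE 0.11, 95% interval −0.63 to −0.16), with an unadjusted p of 0.0030 and an adjusted p of 0.0513 by edgeR, just outside the threshold. *Rfc4* was called lower in 9 of 17 other ways of processing the counts, with adjusted p-values over the 17 from 0.0216 with the trend on gene length removed to 0.190 without *Rpl22*+/+ replicate 1. Of its exons, 12.7% are shared with *Eif4a2* on the opposite strand.

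Of the other loader subunits, *Rfc5* was at 85.8, 109 and 92.7 CPM against 90.5, 83.7 and 80.4 CPM (log2 difference 0.18, SE 0.098, adjusted p = 0.309 by edgeR), *Rfc2* had a difference of 0.083, and *Rfc3* one of −0.16 with an adjusted p of 0.409, at 40.6, 48.0 and 43.8 CPM against 50.1, 54.8 and 42.9 CPM. *Pcna*, the clamp itself, was at 305, 388 and 308 CPM against 382, 374 and 324 CPM, a log2 difference of −0.11 (adjusted p = 0.592 by edgeR). *Rpa2*, a subunit of the single-strand binding protein, and *Tipin*, which protects stalled forks, had differences of −0.040 and −0.0093. *Rpa2* was at 62.7, 104 and 88.7 CPM in *Rpl22*-/- samples and at 86.9, 93.6 and 81.8 CPM in *Rpl22*+/+ samples, on the log2 scale the widest range among the *Rpl22*-/- libraries of the 42 genes.

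**Figure D2:**
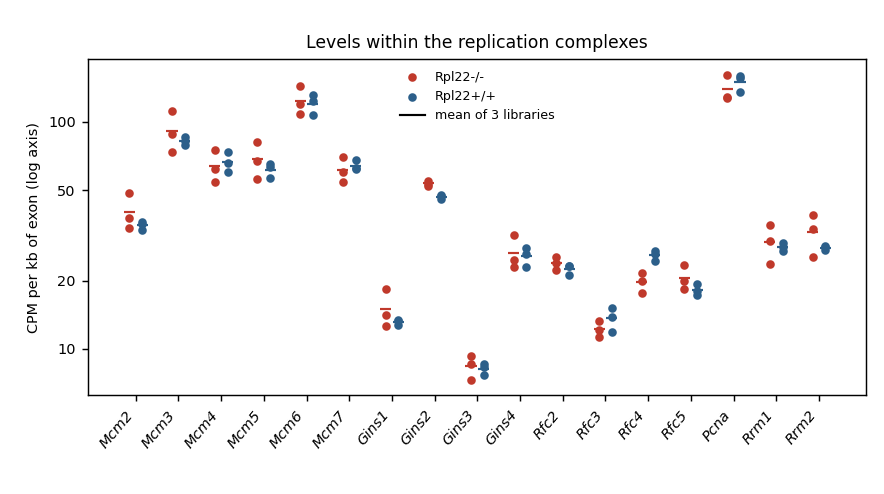
CPM per kilobase of merged exon (y axis, log scale) of the subunits of the helicase ring, GINS, the clamp loader, the clamp and ribonucleotide reductase in each library, with lines for the mean of 3. The *Rfc4* points of the genotypes do not overlap, while those of *Rfc2*, *Rfc3* and *Rfc5* do.

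Per kilobase of exon, *Pcna* and *Mcm6* had the highest levels of the 42 genes, with means of 150 and 121 CPM per kb in *Rpl22*+/+ HSCs, and *Ccne1* and *Orc1* the lowest, with 4.39 and 4.72. The subunits of one complex were not read evenly. In *Rpl22*+/+ HSCs the ring subunits ran from 35.1 CPM per kb for *Mcm2* to 121 for *Mcm6*, the GINS subunits from 8.17 for *Gins3* to 46.9 for *Gins2*, and the loader subunits from 13.6 for *Rfc3* to 25.8 for *Rfc4*. The order within the loader differed by genotype in these means, since *Rfc4* stood highest of the 4 in *Rpl22*+/+ HSCs and below *Rfc2* and *Rfc5* in *Rpl22*-/- HSCs, at 19.7 against 23.9 and 20.6 CPM per kb. The lengths merge the exons of all annotated transcripts, some of which HSCs may not use. The level of *Gins2* is also uncertain because 67.3% of its exons are shared with *Gse1*.

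The genes of Okazaki fragments, deoxynucleotide supply, chromatin and S-phase entry all had positive log2 fold changes in the edgeR fit with TMM scaling and all libraries. Their adjusted p-values in it were 0.257 or more. *Uhrf1* and *Ccne2* turned negative in some alternatives, among them library size alone. Without *Rpl22*-/- replicate 2, *Fen1*, *Rrm1*, *Chaf1a*, *Ccne1*, *Uhrf1* and *Ccne2* were negative. *Fen1* and *Lig1*, which trim and join Okazaki fragments, had differences of 0.084 and 0.12. *Lig1* was at 158, 241 and 225 CPM in *Rpl22*-/- samples and 187, 201 and 186 CPM in *Rpl22*+/+ samples, so that replicate 1 lay below and the other two above the *Rpl22*+/+ range. Of the *Fen1* exons 78.8% are shared with the antisense gene *Gm10143*, which had 654 to 1079 reads per library. Deoxynucleotide supply had 4 genes. *Rrm2*, the S-phase subunit of ribonucleotide reductase, was at 70.1, 107 and 93.6 CPM in *Rpl22*-/- samples, against 78.5, 77.8 and 75.8 CPM in *Rpl22*+/+ samples. The *Rpl22*+/+ values lay close together while the *Rpl22*-/- values lay on both sides of them, and the log2 difference was 0.22 (SE 0.12, adjusted p = 0.295 by edgeR). *Tk1*, thymidine kinase, was at 74.4, 101 and 98.7 CPM against 77.3, 81.1 and 85.5 CPM (log2 difference 0.17, SE 0.11, adjusted p = 0.383). *Rrm1*, the large reductase subunit, and *Tyms*, thymidylate synthase, had differences of 0.072 and 0.097.

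Of the chromatin genes, *Chaf1b*, a subunit of the assembly factor CAF-1 that deposits histones behind the fork, was at 101, 116 and 115 CPM against 102, 99.1 and 101 CPM (log2 difference 0.14, SE 0.085, adjusted p = 0.366 by edgeR). Its partner *Chaf1a* had a difference of 0.096, with 52.5% of its exons shared with *Ubxn6*, and *Uhrf1*, which brings the maintenance methyltransferase to new DNA, one of 0.034. Among the regulators of S-phase entry, *E2f1*, on the minus strand of chromosome 2 from 154559407 to 154569892 (GRCm38), had the largest positive difference of the 42 genes. It was at 51.8, 75.4 and 66.8 CPM in *Rpl22*-/- samples and at 54.2, 59.9 and 49.4 CPM in *Rpl22*+/+ samples, and replicate 1 of *Rpl22*-/- lay within the *Rpl22*+/+ range (log2 difference 0.24, SE 0.12, 95% interval −0.017 to 0.51, adjusted p = 0.257). The E-type cyclins *Ccne1* and *Ccne2*, which with Cdk2 open S phase, had differences of 0.074 and 0.00060, the first from 104 to 178 reads per library.

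The *Rpl22*-/- samples differed from each other in a common order over the 42 genes. *Rpl22*-/- replicate 1 was the lowest of the 3 *Rpl22*-/- libraries for 38 of the 42 genes, against 34.4% of all genes tested, and replicate 2 the highest for 41, against 34.8%. The order of replicate 1 below 3 below 2 was found in 37 of the 42 genes (88.1%) and in 19.6% of all genes tested. Taken over all 6 libraries, *Rpl22*-/- replicate 1 was the lowest for 27 genes and replicate 2 the highest for 36, so that the *Rpl22*+/+ libraries mostly lay between 2 *Rpl22*-/- libraries. Of all genes tested, replicate 1 was the lowest for 13.6% and replicate 2 the highest for 22.9%. The SD of log2 CPM was larger over the *Rpl22*-/- than over the *Rpl22*+/+ libraries for 39 of the 42 genes (92.9%), and for 62.2% of all genes tested. The genes of one library share its cells and depth, so these counts describe 3 samples and carry no test.

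The 5 genes with another order were *Gins1*, *Gins4*, *Prim1* and *Rfc4*, which were lowest in replicate 3, and *Pole*, which was highest in replicate 3. From the lowest to the highest *Rpl22*-/- library the log2 range was 0.45 in the median gene, from 0.047 in *Pole2* to 0.73 in *Rpa2*, and among the *Rpl22*+/+ libraries it was 0.14 in the median gene. *Pole2* and *Gins2*, which did not overlap between the genotypes, had the smallest ranges among the *Rpl22*-/- libraries, 0.047 and 0.079.

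**Figure D3:**
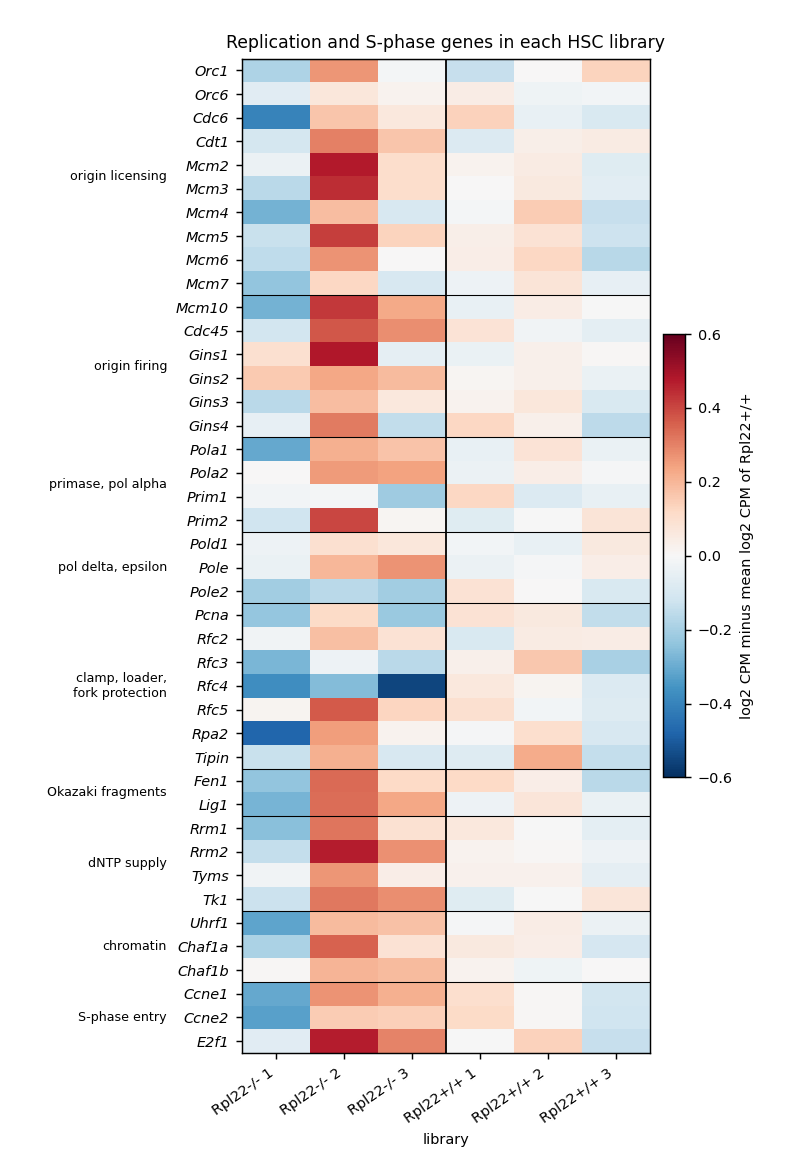
Log2 CPM of each of the 42 genes (rows, by role) in each library (columns) minus its mean log2 CPM over the *Rpl22*+/+ libraries, from blue (lower) to red (higher). The column of *Rpl22*-/- replicate 1 is mostly blue and that of replicate 2 mostly red, and *Rfc4* and *Pole2* are blue in all 3 *Rpl22*-/- columns.

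Summed over the 42 genes, the CPM were 4769, 6370 and 5551 in *Rpl22*-/- samples, against 5374, 5517 and 5059 in *Rpl22*+/+ samples, with means of 5564 ± 800.2 and 5317 ± 234 (SD, n = 3). The *Rpl22*-/- sums lay on both sides of the *Rpl22*+/+ sums. Reads on genes were 12762908, 12481991 and 13385850 in *Rpl22*-/- replicates 1, 2 and 3, so the library with the highest sum was the least deep of its group. As a median over genes of the log2 CPM minus its *Rpl22*+/+ mean, *Rpl22*-/- replicates 1, 2 and 3 stood at −0.15, 0.26 and 0.089, and the *Rpl22*+/+ replicates at 0.021, 0.033 and −0.059. The same order held for the medians of all 9 roles. They stood at −0.16, 0.27 and 0.041 for origin licensing and at −0.30, 0.27 and 0.21 for the S-phase entry regulators. The spread was smallest for the replicative polymerases, at −0.041, 0.097 and 0.069. The library highest in the replication genes, replicate 2, was the one high in *Mpo* and *Elane*. It was the lowest *Rpl22*-/- library in 13 of 15 HSC markers, against 36.0% of all genes tested. The median of these HSC markers stood at −0.14 in it and at −0.0027 and 0.0088 in the other *Rpl22*-/- libraries. Over the 10 markers of multipotent and myeloid progenitors, the summed CPM were 426, 619 and 442 in *Rpl22*-/- samples, against 458, 477 and 492 in *Rpl22*+/+ samples. Of these markers 9 were tested and 1 was called, against 5.57% of all genes tested. This was *Ctsg*, higher in *Rpl22*-/- HSCs with 28, 163 and 48 reads against 1, 10 and 19. Its adjusted p of 0.0282 by edgeR became 0.162 without replicate 2 and 0.161 by DESeq2, and it was called in 10 of the 16 alternatives that tested it. *Mpo* and *Elane* were not called (adjusted p = 0.0642 and 0.0970 by edgeR). The part of the markers in the replication gene levels was not tested.

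**Figure D4:**
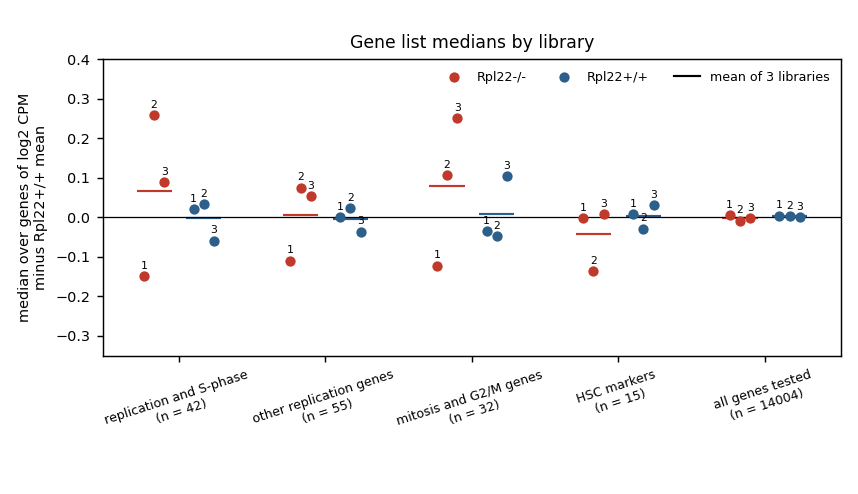
Median over the genes of each list of log2 CPM minus the *Rpl22*+/+ mean (y axis) in each library, numbered by replicate, with lines for the mean of 3. The 42 replication and S-phase genes spread from −0.15 to 0.26 in the *Rpl22*-/- libraries and from −0.059 to 0.033 in the *Rpl22*+/+ libraries.

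The comparison of the genotypes depended on which *Rpl22*-/- library was in it. Replicate 1 was the lowest *Rpl22*-/- library for 38 of the 42 genes and replicate 2 the highest for 41. Leaving out either of them therefore moved most fold changes in a direction set by that order. Without *Rpl22*-/- replicate 1, the median log2 fold change of the 42 genes was 0.20, 37 were positive, and 6 were called higher, against 6.78% of the 14243 genes then tested. These were *Rrm2* (0.38, adjusted p = 0.0138), *E2f1* (0.38, 0.0255), *Tk1* (0.30, 0.0352), *Lig1* (0.29, 0.0387), *Cdc45* (0.33, 0.0414) and *Mcm10* (0.33, 0.0419). In the same fit *Rfc4* was called lower (−0.40, adjusted p = 0.0467), where 5.3% of all genes were. Without *Rpl22*-/- replicate 2, the median was −0.037, 25 of 42 were negative, and none was called, where 2.59% of all genes then tested were. Leaving out *Rpl22*-/- replicate 3 or any *Rpl22*+/+ library gave medians from 0.060 to 0.11 with none of the 42 called. In those fits the share of all genes called was 0.892% without *Rpl22*-/- replicate 3 and 1.44%, 1.82% and 1.69% without *Rpl22*+/+ replicate 1, 2 or 3, so that a count of 0 among 42 genes was near the share of all genes.

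**Figure D5:**
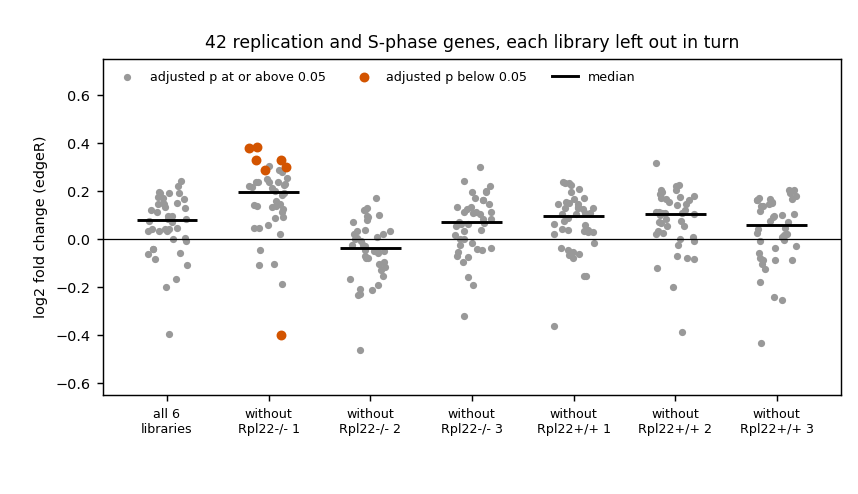
Log2 fold change of the 42 genes (points, y axis) with all 6 libraries and with each library left out in turn (x axis), orange where the adjusted p was below 0.05 and with a line at the median. The median is 0.20 without *Rpl22*-/- replicate 1 and −0.037 without *Rpl22*-/- replicate 2.

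Of 55 other replication genes, 1 was called higher and 1 lower, against 5.57% of all genes tested, 5 had an unadjusted p below 0.05 in each direction, against 11.6% of all genes higher and 10.7% lower, 30 had positive log2 fold changes, and the median was 0.016. These counts were near or below the shares over all genes. *E2f8*, a repressor of the E2F family, rose from 74.6 ± 2.96 to 105 ± 20.4 CPM (SD, n = 3), which edgeR fitted as 0.50 on the log2 scale (adjusted p = 0.0248), with 82.1, 113 and 121 CPM in the *Rpl22*-/- libraries. *Orc4*, a subunit of the origin recognition complex, fell by 0.34 on the log2 scale (adjusted p = 0.0372), with 64.0, 56.4 and 56.9 CPM against 78.7, 75.8 and 70.3 CPM. *Pold2*, a subunit of polymerase delta, had the next smallest p-value, with a log2 fold change of 0.39 and an adjusted p of 0.0502. Neither call held without *Rpl22*-/- replicate 2 or 3 or any single *Rpl22*+/+ library, where the adjusted p ran from 0.0674 to 0.135 for *E2f8* and from 0.0656 to 0.174 for *Orc4*, and *Orc4* stood at −0.14 (adjusted p = 0.376) with the trend on GC content removed. For these 55 genes replicate 1 was the lowest *Rpl22*-/- library in 37 and replicate 2 the highest in 27, against 34.4% and 34.8% of all genes tested.

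None of 32 genes of mitosis and G2/M was called by edgeR, while 8 had an unadjusted p below 0.05, near the 22.3% of all genes tested. Of these 7 were higher and 1 was lower, against 11.6% and 10.7% of all genes, and the median log2 fold change was 0.090. By DESeq2 2 of the 32 were called, where 7.42% of all genes were. *Plk1*, the mitotic kinase, was at 33.2, 51.5 and 58.4 CPM in *Rpl22*-/- samples, against 32.9, 32.0 and 34.3 CPM in *Rpl22*+/+ samples (log2 difference 0.53, adjusted p = 0.0592). *Ube2c* and *Ccnb2*, which act at anaphase and at entry into mitosis, had differences of 0.44 and 0.27, with adjusted p-values of 0.0670 and 0.0970. In this list *Rpl22*-/- replicate 1 was the lowest of its group for all 32 genes, but the highest was replicate 3 for 25 and replicate 2 for 7, so that the libraries ranked differently from the S-phase genes. Of all genes tested, replicate 1 was the lowest of its group for 34.4%, replicate 3 the highest for 30.1% and replicate 2 for 34.8%. The summed CPM were 3220, 4103 and 4724 against 3562, 3591 and 3954.

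Of 20 regulators of G1 and quiescence, 19 were tested and 4 were called, all higher, against 5.57% of all genes tested. *Cdkn1a*, which encodes the inhibitor p21 of cyclin-dependent kinases, had 121, 186 and 175 reads in *Rpl22*-/- samples, against 30, 21 and 25 in *Rpl22*+/+ samples (log2 fold change 2.54, adjusted p = 7.56e-05 by edgeR). *Ccnd1* and *Cdk6*, a D-type cyclin and its kinase, were higher, with log2 fold changes of 0.44 and 0.37 (adjusted p = 0.0333 and 0.0380), and *E2f4*, an E2F that represses in resting cells, by 0.43 (adjusted p = 0.0371). The call of *Cdkn1a* held in all 17 alternatives, with a log2 fold change from 2.38 to 2.72. Those of *Ccnd1* and *E2f4* were lost without *Rpl22*-/- replicate 2 or 3 or any single *Rpl22*+/+ library, and that of *Cdk6* without any of these except *Rpl22*+/+ replicate 2, with adjusted p-values up to 0.139, 0.150 and 0.208. Removal of the GC trend also ended the calls of *Ccnd1* (adjusted p = 0.0524) and *E2f4* (0.103), removal of the length trend that of *E2f4* (0.0630), and scaling by library size alone that of *Cdk6* (0.0630).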

How the data were processed

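Libraries of poly(A)+ RNA were made from HSCs of 3 *Rpl22*-/- and 3 *Rpl22*+/+ samples. Per the submitters' processing notes the alignment to mm10 used TopHat2 2.1.1. After quality control with FastQC the authors deposited HTSeq counts of reads per gene without normalization. The annotation and the strand setting of the counting are not given in the sources used here. The 5 summary lines of unassigned reads, 58.6% to 60.9% of each library, entered neither library sizes nor tests, and the number of per-sample columns not used was 0.

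The filter filterByExpr (minimum count 10) of edgeR 4.0.16, run in R 4.3.3, left 14004 genes. With TMM factors, edgeR's quasi-likelihood fit over all 6 libraries tested *Rpl22*-/- against *Rpl22*+/+ with p-values adjusted over all these genes by Benjamini-Hochberg. Genes with an adjusted p below 0.05 are called. With 3 samples per genotype, the smallest exact two-sided permutation p is 0.1. CPM are TMM-scaled, and 0.1 CPM was added before the log2 of list medians. Exon lengths, overlaps and positions came from GENCODE vM21 on GRCm38, the assembly of mm10, and near-identical transcripts from BLAST 2.17.0 (at least 95% identity over 200 bases). Tests were run first on simulated counts of 13869 genes, where edgeR recovered 200 of 200 changed genes and called 19 others. That recovery was not split by size of change. It therefore does not show whether log2 fold changes as small as those of the replication genes, −0.39 to 0.24, would be called. DESeq2 1.42.0, limma-voom (limma 3.58.1), other scalings and filters, each library left out, a replicate term and removal of trends on length and GC content (lowess span 0.3) were the alternatives. Tables and figures were made in Python 3.11.15 with matplotlib 3.10.9, scipy 1.17.1, numpy 2.4.6 and pandas 2.3.3.

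The 42 genes and the other lists were chosen with earlier results of these data known. Full values are given for genes with an adjusted p below 0.05, genes whose genotypes did not overlap with an unadjusted p below 0.05, and the 12 genes with the smallest p-values, with some others where the text compares subunits. From other lists the called genes and the 3 smallest p-values of the replication and mitosis lists are named. Promoters are shown for up to 4 genes with an E2F match and the smallest p-values.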

Additional observations from a re-analysis of the deposited data

How the results depend on the processing

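The alternatives were 11 with all libraries kept and 6 that left out 1 library each. Of the 42 genes, 21 kept the sign of their log2 fold change in all 17. *Rfc4* was the 1 gene called lower, against 0 as reported, with library size alone, DESeq2, limma-voom, no filter, at least 10 counts in every sample, the replicate block, the length trend removed, and length and GC trends removed with the replicate block. Over all genes, 481 of 14004 were called lower with library size alone, 418 by DESeq2 and 321 by limma-voom. With no filter 599 of 20635 were, and with at least 10 counts in every sample 318 of 13062. With the replicate block 386 were called lower, with the length trend removed 253, and with both trends removed and the replicate block 176. With library size alone the log2 fold changes became −0.015 for *Orc1*, −0.038 for *Orc6*, −0.0019 for *Mcm6*, −0.012 for *Gins3*, −0.0023 for *Gins4*, −0.0052 for *Pola1*, −0.013 for *Uhrf1* and −0.045 for *Ccne2*. *Ccne2* was also −0.019 with limma-voom, −0.00077 with at least 10 counts in every sample, −0.010 with the replicate block and −0.013 with the length trend removed, which also gave −0.043 for *Orc6*, −0.0077 for *Gins3* and −0.058 for *Gins4*. With the GC trend removed, *Pold1* was −0.050, *Tipin* 0.12 and *Uhrf1* −0.017. With both trends removed and the replicate block, *Orc6* was −0.017, *Gins3* −0.011, *Gins4* −0.089, *Pold1* −0.0086, *Tipin* 0.017, *Fen1* −0.025, *Uhrf1* −0.018 and *Ccne1* −0.025.

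With each library left out in turn, 20 of the 42 genes changed sign at least once, with log2 fold changes from −0.10 to 0.14 for *Orc1*, from −0.023 to 0.047 for *Orc6*, from −0.15 to 0.11 for *Cdc6*, from −0.024 to 0.29 for *Mcm3*, from −0.19 to 0.048 for *Mcm4*, from −0.079 to 0.14 for *Mcm6*, from −0.17 to 0.021 for *Mcm7*, from −0.0056 to 0.33 for *Mcm10*, from −0.047 to 0.13 for *Gins3*, from −0.10 to 0.13 for *Gins4*, from −0.049 to 0.19 for *Pola1*, from −0.051 to 0.22 for *Prim2*, from −0.21 to 0.14 for *Rpa2*, from −0.13 to 0.11 for *Tipin*, from −0.056 to 0.23 for *Fen1*, from −0.070 to 0.22 for *Rrm1*, from −0.050 to 0.19 for *Uhrf1*, from −0.049 to 0.23 for *Chaf1a*, from −0.028 to 0.24 for *Ccne1* and from −0.077 to 0.15 for *Ccne2*. The number of the 42 called ran from 0 to 6 higher and from 0 to 1 lower, and the median from −0.037 to 0.20. Over all genes the number called ran from 127 without *Rpl22*-/- replicate 3 to 1720 without *Rpl22*-/- replicate 1, was 1422 with no filter and 510 with the GC trend removed, against 780 as reported. Of the other replication genes 4 were called by DESeq2 and 1 with both trends removed and the replicate block, and 0 to 10 with a library left out, against 2. Of the mitosis genes 2 were called by DESeq2, 2 with the replicate block, 7 with no filter and 0 to 9 with a library left out, against 0. Of the G1 regulators 1 to 5 were called with a library left out, against 4. Of all genes tested, DESeq2 called 7.42%, the fit with no filter 1422 of 20635, and the replicate block 518 higher and 386 lower of 14004. With a library left out, the share of all genes called was lowest without *Rpl22*-/- replicate 3, at 0.892%. It was highest without *Rpl22*-/- replicate 1, at 6.78% higher and 5.3% lower. The summed CPM of HSC markers in *Rpl22*+/+ libraries averaged 3783 with library size alone against 3725. The causes were not tested.

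The labels do not say whether samples with the same replicate number were paired. Deviations of same-numbered libraries correlated at −0.10, 0.055 and 0.045, and those of unlike-numbered libraries ran from −0.17 to 0.13. With 3 libraries per genotype these values cannot decide whether the samples were paired. The replicate block gave 904 calls against 780. Depth limits the least read genes, such as *Ccne1* with 104 to 178 reads, and intervals rest on 3 samples per genotype.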

Other observations

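Replication-dependent histone genes, whose mRNAs are made in S phase and mostly end without a poly(A) tail, were barely read in these poly(A)+ libraries. Of 70 genes in the table, 12 passed the filter on low counts and 8 had 0 reads in every library. None of the 12 was called by edgeR and none had an unadjusted p below 0.05, 4 had positive and 8 negative log2 fold changes, and the median was −0.20. Their summed CPM were 67.3, 72.8 and 73.8 in *Rpl22*-/- samples against 73.1, 80.4 and 68.9 in *Rpl22*+/+ samples. The most read of those with the smallest p-values, *Hist2h2be*, was at 17.4, 13.2 and 15.7 CPM against 18.6, 17.1 and 18.3 CPM (adjusted p = 0.393 by edgeR), with the *Rpl22*-/- libraries in another order than in the 42 replication genes.

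Markers of other cells were read at levels that differed by list. By edgeR 5.57% of all genes tested were called. Of 15 HSC markers 2 were called, *Gata2*, a transcription factor of stem cells, higher (log2 fold change 0.39, adjusted p = 0.0190) and *Fgd5* lower (−0.41, 0.0308), each in 12 of 17 alternatives, with adjusted p-values up to 0.0947 and 0.154. Of 9 megakaryocyte markers 8 were tested and 6 were called, all higher in *Rpl22*-/- HSCs. *Gp1bb* (log2 fold change 0.82, adjusted p = 0.00792 by edgeR), *Gp1ba* (0.67, 0.0143) and *Gp9* (0.46, 0.0477) encode parts of the platelet receptor of von Willebrand factor, *Itga2b* (0.51, 0.0115) and *Itgb3* (0.47, 0.0216) the platelet integrin, and *Pf4* (0.70, 0.0484) platelet factor 4. The call of *Gp1bb* held in all 17 alternatives. *Itga2b* lost its call without *Rpl22*+/+ replicate 1 (adjusted p = 0.0792) or 3 (0.0599), *Gp1ba* without *Rpl22*-/- replicate 3 (0.0750) or *Rpl22*+/+ replicate 1 (0.0772), and *Itgb3* without *Rpl22*-/- replicate 2 (0.0722) or *Rpl22*+/+ replicate 1 (0.0792) or 3 (0.102). *Gp9* and *Pf4* were each called in 8 of 17 alternatives, with adjusted p-values up to 0.201 for *Gp9* and, by DESeq2, 0.209 for *Pf4*. Their summed CPM were 1404, 1309 and 1128 against 847, 1056 and 810. Of 12 erythroid markers 7 were tested and 2 called, both lower, *Tfrc* (log2 fold change −0.55, adjusted p = 0.00753), which lost its call without *Rpl22*-/- replicate 3 (0.0510), and *Car1* (−1.37, 0.0246), called in 12 of 17 alternatives with adjusted p-values up to 0.119 without *Rpl22*+/+ replicate 1. Of 10 neutrophil markers 6 were tested and 1 called, *Camp*, with 11, 31 and 47 reads against 10, 2 and 3 (adjusted p = 0.0291). It was called in 10 of the 16 alternatives that tested it and lost by limma-voom (adjusted p = 0.0557), without *Rpl22*-/- replicate 2 (0.0780) or 3 (0.148), without *Rpl22*+/+ replicate 2 (0.120) or 3 (0.109), and with both trends removed and the replicate block (0.0764). Of 9 B cell and 10 T and NK cell markers, 2 and 5 were tested and none was called by edgeR, while 1 of each had an unadjusted p below 0.05.

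Near-identical transcripts of other genes were found for some of the replication genes, and reads that fit both are uncertain. *Pcna* shares 99.2% of an aligned stretch with *Pcna-ps2*, which had 2 to 9 reads per library. *Rfc5* shares 96.2% with *Gm12870*, which had 0 to 4, and *Uhrf1* and *Cdc6* share 98.3% and 95.2% with *Gm5648* and *Gm9430*, which had 0. *Mcm7* shares 97.7% of a stretch over 72.8% of its transcript with the pseudogene *Gm5487*, which has no row in the count table analysed here. A stretch of about 11.3% of the *Tyms* transcript recurs at 95.5% to 97.7% identity in transcripts of *Wdr59*, *Map3k2* and *Reep3*, which had 277 to 419, 669 to 1028 and 545 to 853 reads per library, and other genes share stretches of *Tyms* with 0 to 21 reads where counted.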
